A study of Mus musculus with 6 samples.

Results

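Free platelets were the barcodes in a blood mononuclear cell data set that held many platelet transcripts. They were allowed only a few captured molecules of 6 lymphocyte genes and of Lyz2, a lysozyme gene of myeloid cells. A Lyz2 molecule was still present in 212 of the 326. Other genes of these cells were not limited. A barcode was counted as a free platelet when it had at least 200 genes, at most 20% mitochondrial UMIs (unique molecular identifiers, each 1 captured RNA molecule), at least 10 UMIs summed over Pf4, Ppbp, Gp9, Itga2b, Treml1 and Tubb1, at most 1 UMI summed over Cd3d, Cd3e, Cd3g, Cd79a, Cd79b and Ms4a1, and at most 2 UMIs of Lyz2. Of 49025 kept barcodes, 326 met this rule. The members were thus chosen by their measured UMIs of these 13 genes, the number of genes and the mitochondrial share. Mononuclear cells came from peripheral blood of male mice aged 12 to 13 weeks. The T2D group is labelled as the high-fat diet and streptozotocin model of type 2 diabetes (streptozotocin is a toxin taken up by pancreatic beta cells), given by intraperitoneal injection, and the Con group was injected with saline by the same route. What the controls ate is not stated. Each group had 3 libraries. Whether 1 mouse or several went into each is also not stated, so a p-value here reflects library-to-library spread, part of which may be technical.

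Platelets are fragments shed by megakaryocytes. They have no nucleus and carry RNA inherited from the parent cell, alpha granules with chemokines and clotting proteins, dense granules with serotonin and nucleotides, and surface receptors for von Willebrand factor, collagen, fibrinogen, thrombin and ADP. In blood they circulate singly, and they also adhere to leukocytes.

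The libraries held 23574052 to 32321855 UMIs, and the 326 free platelets together gave 32889 to 95767 UMIs per library. No deposited barcode had fewer than 501 UMIs, so platelets with less captured RNA are not represented. Of 48270 distinct barcode sequences 1127 occurred in more than 1 library; 10 free platelet barcodes also occurred in another library, and 0 were free platelets in more than 1. All 5 marker genes given for the population (Pf4, Ppbp, Gp9, Treml1 and Tubb1) were detected in the free platelets of each library, but these genes chose the barcodes and are a description only. Some barcodes also held genes of other blood cells, as described with the markers of those cells.

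The typical free platelet was a small library. The median was 804 UMIs (quartiles 625 and 1162, range 501 to 21083) and 392 genes. Ribosomal protein genes gave a median of 0.921% of a free platelet's UMIs, with 265 of 326 below 2% and 33 at 4% or more. Mitochondrial genes gave a median of 0.949%. The rule genes gave 10 to 232 UMIs per barcode with a median of 26. Just inside the threshold, 20 barcodes held 10 and 13 held 11 of these UMIs, while just outside it 23 held 8 and 8 held 9. A lymphocyte rule UMI was present in 36 free platelets and a Lyz2 UMI in 212. For comparison, 3.85% to 7.62% of lymphocyte barcodes per library (at least 3 lymphocyte rule UMIs, medians 2959 to 3438 UMIs) had a platelet rule UMI, and the mean was 0.103 to 0.230 such UMIs per lymphocyte barcode.

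A further 518 barcodes had at least 10 platelet rule UMIs but failed an exclusion limit: 361 by Lyz2 only, 90 by lymphocyte genes only and 67 by both. These are called carrying barcodes here. They are a mixture, since 224 of the 518 had less than 2% ribosomal protein UMIs, as most free platelets did. Their size and composition are described without a test, because the Lyz2 and lymphocyte limits are absolute UMI numbers that a barcode with more RNA fails more often, and because both kinds of barcode had passed the mitochondrial limit. The median UMI number per barcode was 799 ± 44.0 in free platelets (SD, n = 6 libraries) and 3202 ± 692 in carrying barcodes. The median ribosomal protein share was 0.940% ± 0.229 against 4.62% ± 2.22, and the median mitochondrial share 0.995% ± 0.168 against 1.90% ± 0.285. Each was lower in free platelets in 6 of 6 libraries. The size of the gap depended on the rule: with at least 20 platelet UMIs it was -918 UMIs, -0.364 points of ribosomal protein share and -0.373 points of mitochondrial share, against -2402 UMIs, -3.68 points and -0.905 points with at least 10. The remaining kept barcodes, neither free nor carrying, had a median of 3030 UMIs, 11.3% ribosomal protein UMIs and 4.96% mitochondrial UMIs as means over libraries. The 2 kinds of barcode differ in Lyz2 and lymphocyte RNA by construction.

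**Figure D1:**
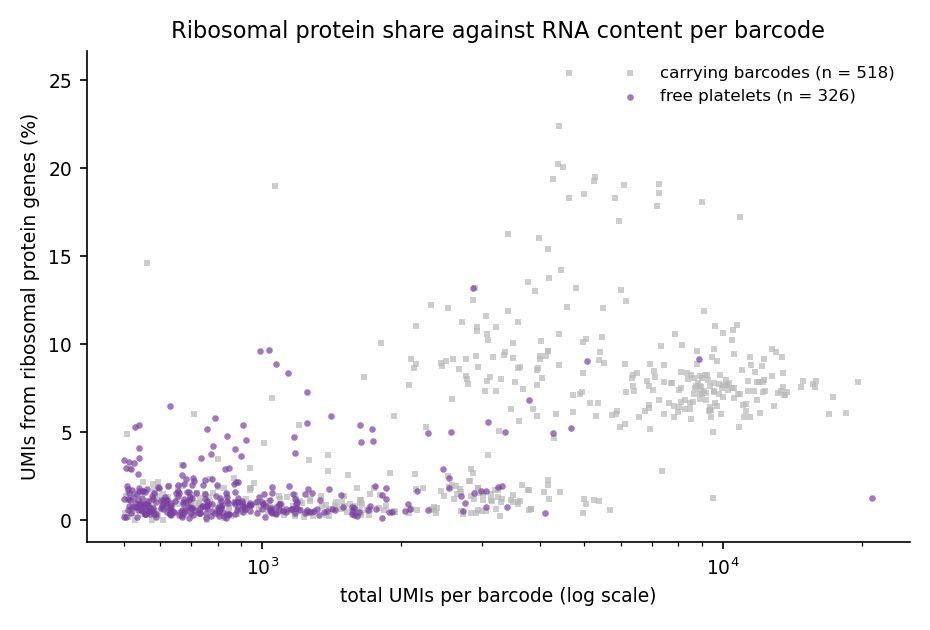
Each point is 1 barcode, with its total UMIs on a log scale against the percentage of its UMIs from ribosomal protein genes, for 326 free platelets and 518 carrying barcodes of all 6 libraries. Most free platelets sit below 2%, with a median of 804 UMIs. The carrying barcodes form a group of similarly low share, part of it at higher UMI totals, and a group above 5%.

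**Figure D2:**
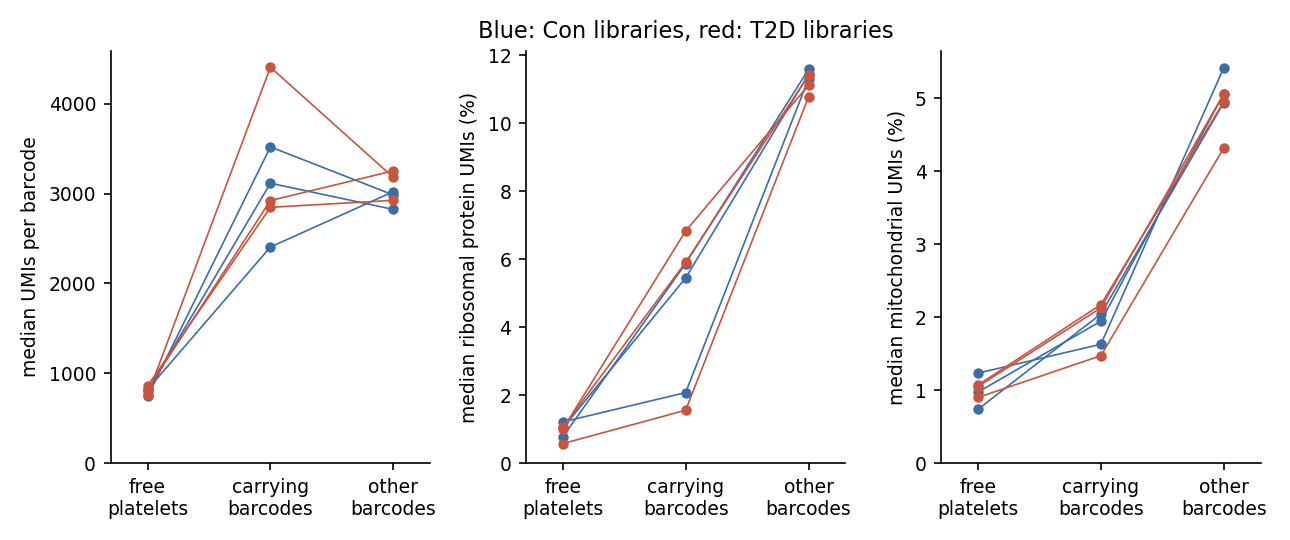
Per-library medians of total UMIs, ribosomal protein percentage and mitochondrial percentage per barcode for free platelets, carrying barcodes and the remaining barcodes, with a line for each library. In all 6 libraries the free platelets are the lowest in the 3 measures.

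Malat1, a long non-coding RNA kept in the nucleus, had no UMI in 205 of the 326 free platelets. After each barcode was thinned to 500 UMIs, 68.4% to 79.0% of free platelets per library lacked a Malat1 UMI, against 52.7% to 64.9% of carrying barcodes and 22.99% to 27.7% of the remaining barcodes. Without thinning the ranges were 57.6% to 71.4%, 23.8% to 40.4% and 1.66% to 2.99%. This share was added after the values had been seen. The summed Malat1 level of free platelets was 2849, 1140 and 1279 CPM (counts scaled to a fixed total of these barcodes' UMIs) in Con 1 to 3, and 1702, 7852 and 456 CPM in T2D 1 to 3. The mean was 2546 ± 2717 CPM against 1640 ± 335 CPM in carrying barcodes (SD, n = 6), with free platelets lower in 4 of 6 libraries. T2D 2 is the high library, where 1 barcode of 21083 UMIs held 22.01% of all free platelet UMIs. Without T2D 2 the difference changed sign, from 907 to -222 CPM.

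Genes of platelet function led the profile of free platelets. The rule chose barcodes for such genes, so the levels are described and not tested. All levels are 3′ UMI counts, not divided by gene length. A fold against other barcodes means all kept barcodes that are not free platelets, with 20 CPM added to both. No share over all genes is given beside the 4-fold counts that follow. Those counts thus describe each list and do not show an excess. Ppbp, the precursor of the neutrophil-attracting chemokine CXCL7, was the rule gene of highest level, with 23742, 25876 and 19663 CPM in Con 1 to 3 and 18478, 16175 and 18517 CPM in T2D 1 to 3. It was 7.26 higher on the log2 scale than in other barcodes, the largest such value of any gene. Pf4, platelet factor 4, had 4226, 4572 and 3652 CPM in Con and 3084, 1932 and 4530 CPM in T2D. Its log2 value against other barcodes was 6.38. The integrin subunit gene Itga2b, which with Itgb3 forms the fibrinogen receptor, had 2072 ± 554 CPM (SD, n = 6).

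Ppbp and Pf4 are neighbours on chromosome 5 of GRCm38, the assembly also called mm10. Ppbp lies at chr5:90768518-90770063 and Pf4 at chr5:90772435-90773383, both on the plus strand, with starts 3917 bases apart, and Itga2b lies on the minus strand at chr11:102453297-102470122. The 250 bases upstream of the RefSeq start of these rule genes (GRCm38.p6; chr5:90772185-90772434, chr5:90768268-90768517 and chr11:102469884-102470133) are shown because these are the genes that define the barcodes. Capitals mark matches to AGGAAG or CGGAAG, letters bound by ETS-family factors such as FLI1, on either strand. The start of Itga2b differs between RefSeq and GENCODE, the source of the spans above. Most of its window, with both marked matches, lies inside the gene span given above and not upstream of it.

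Pf4: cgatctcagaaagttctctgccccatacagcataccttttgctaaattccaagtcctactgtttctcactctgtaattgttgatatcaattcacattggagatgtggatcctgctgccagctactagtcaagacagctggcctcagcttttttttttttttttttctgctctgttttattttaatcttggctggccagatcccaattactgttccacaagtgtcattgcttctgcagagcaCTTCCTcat
Ppbp: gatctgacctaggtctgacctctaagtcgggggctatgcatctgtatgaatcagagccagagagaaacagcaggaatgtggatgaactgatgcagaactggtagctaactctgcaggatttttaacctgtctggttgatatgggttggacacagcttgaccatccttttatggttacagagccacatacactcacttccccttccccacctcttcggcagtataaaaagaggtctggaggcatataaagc
Itga2b: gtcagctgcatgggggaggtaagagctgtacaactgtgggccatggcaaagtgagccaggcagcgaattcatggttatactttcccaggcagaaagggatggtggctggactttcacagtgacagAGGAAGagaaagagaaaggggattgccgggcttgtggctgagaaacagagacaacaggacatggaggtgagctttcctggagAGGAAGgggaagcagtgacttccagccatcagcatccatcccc

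No excess of such letters was seen in platelet genes. Of 18 genes looked up (the rule genes and the genes most enriched in free platelets) 17 had a window. AGGAAG or CGGAAG occurred in 6 of the 17 (35.3%) and in 38.9% of 27025 mouse genes. AGATAA or TGATAA, letters bound by GATA factors, occurred in 2 of 17 (11.8%) and in 16.99% of all genes, and both kinds in 1 of 17 (5.88%) and 5.57%. These were the only motifs searched, both strands were read, and a match of one kind can share bases with a match of the other. A match describes letters and not a bound site.

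**Figure D3:**
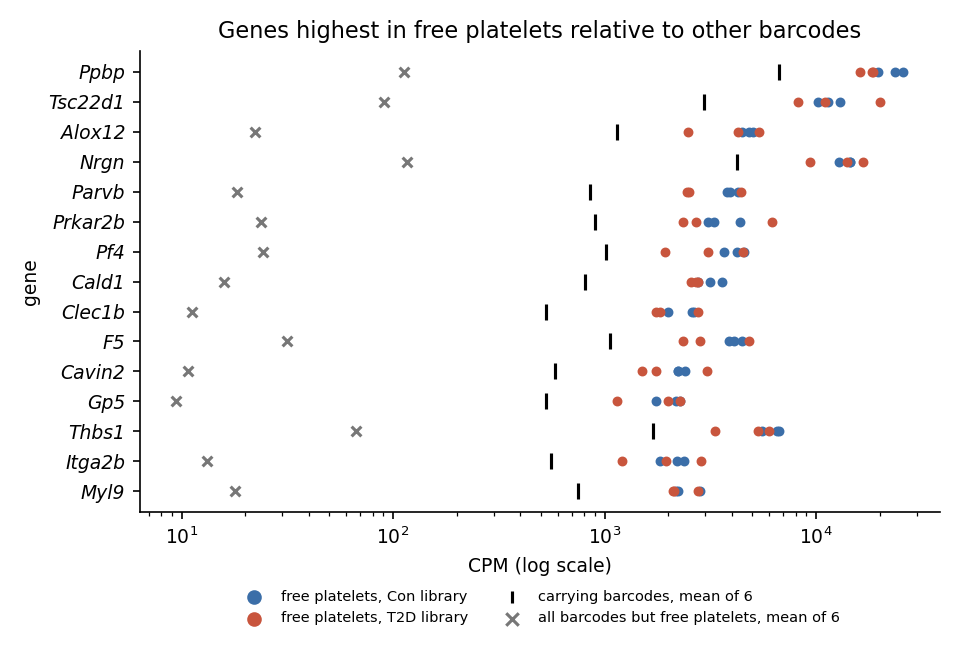
Level in CPM on a log scale of the 15 genes highest in free platelets relative to other barcodes. Dots are the 6 libraries' free platelets, bars the mean of carrying barcodes and crosses the mean of all barcodes but free platelets; Ppbp is the first gene, and all dots lie to the right of the bars and crosses.

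Genes of the alpha granule cargo list were prominent. Of 27 listed genes 22 had at least 1 UMI in free platelets, and 14 were 4-fold or more above other barcodes. Together the list gave 3.44% to 5.80% of free platelet UMIs per library, against 0.249% to 0.376% in the remaining barcodes. Nrgn, a calmodulin-binding protein placed in this list although it is not granule cargo, had 13649 ± 2410 CPM (SD, n = 6). Its UMIs count in that share, as do those of Plek, which is not cargo either. Thbs1, thrombospondin 1, had 5557 ± 1221 CPM, and F5, clotting factor V, had 3737 ± 965 CPM. Vwf, the multimeric glycoprotein that tethers platelets to collagen, had 1088 ± 227 CPM, and Mmrn1, a carrier of factor V, had 1614 ± 436 CPM. Ccl5, a chemokine also made by lymphocytes, varied from 0 CPM in Con 2 to 1344 CPM in T2D 1. Egf, Igf1, Gas6 and Sparc had 0 UMIs, which allows up to 31.3 to 91.2 CPM per library (3 UMIs).

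Surface receptors and adhesion genes gave 2.13% to 4.05% of UMIs, against 0.0670% to 0.1004% in the remaining barcodes, and 19 of 30 were 4-fold or more above other barcodes. Itga6, a laminin-binding integrin subunit, had 5623 ± 1911 CPM and Itgb3 had 3479 ± 745 CPM. The collagen receptor Gp6 had 1342 ± 288 CPM. Of the receptor complex for von Willebrand factor, Gp5 had 1940 ± 437 CPM and Gp1ba had 1127 ± 340 CPM. Clec1b, the podoplanin receptor CLEC-2, had 2268 ± 456 CPM. The ADP receptor P2ry12 ranged from 807 CPM in Con 1 to 1885 CPM in T2D 3. Tbxa2r, Jam3 and Adra2a had 0 UMIs.

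Cytoskeletal genes gave the largest share of the lists, 9.57% to 13.3% of UMIs against 2.10% to 2.62%, and 17 of 28 were 4-fold or more above other barcodes. Tmsb4x, which sequesters actin monomers, was the most abundant gene, with 45628 ± 3776 CPM. Actb, beta-actin, had 22245 ± 3874 CPM. Both are abundant in leukocytes too, at 7883 and 8019 CPM in other barcodes. More restricted members were Parvb, an integrin-linked adaptor, with 3561 ± 865 CPM against 18.2 CPM, and Myl9, a myosin light chain, with 2370 ± 332 CPM against 17.9 CPM.

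Signalling, lipid and secretion genes were also found. Of the signalling list 9 of 28 genes were 4-fold or more above other barcodes. Rap1b, a small GTPase that leads to integrin activation, had 4516 ± 1329 CPM, and Rgs18, a regulator of G-protein signalling, had 1850 ± 563 CPM against 21.4 CPM. Of the lipid list 6 of 14 passed this fold, led by Alox12, the platelet 12-lipoxygenase, at 4400 ± 1022 CPM against 22.2 CPM. Ptgs1, the cyclooxygenase blocked by aspirin, had 441 ± 157 CPM. Of the secretion list 5 of 21 passed. These included the syntaxin Stx11 at 1877 ± 406 CPM and the serotonin transporter Slc6a4 at 1078 ± 301 CPM.

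Of 13 megakaryocyte transcription factor genes all had a UMI and 4 were 4-fold or more above other barcodes. Nfe2 had 845 ± 347 CPM against 19.4 CPM, Tal1 had 405 ± 268 CPM against 2.1 CPM, and Gata1 had 257 ± 161 CPM against 2.4 CPM. Each of these is known to act in megakaryocyte development. Outside the lists, Tsc22d1, a leucine-zipper protein, had 12291 ± 4100 CPM against 91.1 CPM, and Ywhah, a 14-3-3 adaptor, had 8466 ± 1980 CPM. Prkar2b, a regulatory subunit of protein kinase A, had 3661 ± 1420 CPM.

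The enriched genes were also compared per platelet transcript between the 2 kinds of barcode. For 12 enriched genes outside the rule, the number of UMIs per rule-gene UMI in carrying barcodes was on average 0.739 (Clec1b) to 1.06 (Thbs1) of that in free platelets. Within genes the ratio varied between libraries, for Thbs1 from 0.626 to 1.93.

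Markers of B and T cells were below their level in other barcodes. Those of NK cells, granulocytes, dendritic cells and red cells varied between libraries. Neutrophil, eosinophil, basophil and dendritic cell sums were mostly above the remaining barcodes. All 12 B cell and 13 T cell markers were at least 4-fold below other barcodes, which for Cd3d, Cd3e, Cd3g, Cd79a, Cd79b and Ms4a1 the rule fixed; Cd3d had 0 UMIs. Even so, 104 of the 326 free platelets held at least 3 UMIs of the B cell list, against 10 for the T cell list. Of the 8 NK cell markers none was 4-fold below other barcodes. Their sum was 0 to 1382 CPM in Con and 182 to 1868 CPM in T2D, with 549 to 1315 CPM over the libraries in the remaining barcodes. Only 4 of the 326 free platelets held at least 3 NK marker UMIs. Without barcodes over 3000 UMIs the NK marker UMIs fell from 313 to 57. Of the endothelial list, Egfl7, Tek, Cdh5 and Cldn5 had 0 UMIs, and of the progenitor list Cd34, Ccna2, Kit and Cdk1 had 0. Summed neutrophil markers ranged over the libraries from 30.4 CPM in T2D 3 to 13000 CPM in T2D 2, with 3239 to 10423 CPM in Con. The remaining barcodes had 818 to 2533 CPM, below the free platelets of every library but T2D 3. Of the 10 neutrophil markers 3 were 4-fold or more above other barcodes and 0 were 4-fold below. At least 3 neutrophil marker UMIs were held by 36 of the 326 free platelets. Summed eosinophil markers were 0 to 380 CPM, with 21.6 to 46.4 CPM in the remaining barcodes. Summed erythroid markers were 1401 to 2140 CPM in Con and 2524 to 21176 CPM in T2D, where T2D 2 is the highest. At least 3 such UMIs were held by 98 free platelets. In the remaining barcodes the erythroid sum was 1305 to 2129 CPM in Con and 1772 to 5697 CPM in T2D. Summed basophil markers were 250 to 1568 CPM in Con and 209 to 578 CPM in T2D, with 16.6 to 41.7 CPM in the remaining barcodes, and 12 free platelets held at least 3. That list includes Gata2, which megakaryocytes express too, at 357 ± 162 CPM (SD, n = 6). Restricting members to barcodes with at most 2 UMIs of each of 7 leukocyte and erythroid lists left 181. Barcodes above 3000 UMIs numbered 14, with 1, 2 and 3 in Con 1 to 3, 4 in T2D 1, 4 in T2D 2 and none in T2D 3. No doublet caller was run; the limits on lymphocyte and Lyz2 UMIs are the only guard against mixed barcodes.

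The main question of the design was whether free platelets differ between T2D and Con. Their share of kept barcodes did not differ detectably. It was 0.594% (45 of 7575, exact 95% binomial interval 0.434% to 0.794%), 0.954% (70 of 7339, 0.744% to 1.20%) and 0.567% (46 of 8115, 0.415% to 0.755%) in Con 1 to 3. In T2D 1 to 3 it was 0.689% (62 of 8997, 0.529% to 0.883%), 0.749% (66 of 8816, 0.579% to 0.951%) and 0.452% (37 of 8183, 0.319% to 0.623%). The intervals cover counting error only. The groups overlap, and the highest and the lowest library are Con 2 and T2D 3. The means were 0.705% ± 0.216 in Con and 0.630% ± 0.157 in T2D (SD, n = 3, difference -0.0749 percentage points, two-sided exact permutation p = 0.7, where 3 against 3 libraries cannot go below 0.1). The sign turned without Con 2 (0.0495) and without T2D 3 (0.0140).

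The log2 ratio of free platelets to carrying barcodes was -0.642 ± 0.140 in Con and -0.609 ± 0.438 in T2D (n = 3, difference 0.0330, exact permutation p = 1). Its sign changed in 7 of 14 alternatives. The carrying barcodes were 1.08% ± 0.223 of kept barcodes in Con and 1.03% ± 0.538 in T2D (exact permutation p = 0.8, n = 3).

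**Figure D4:**
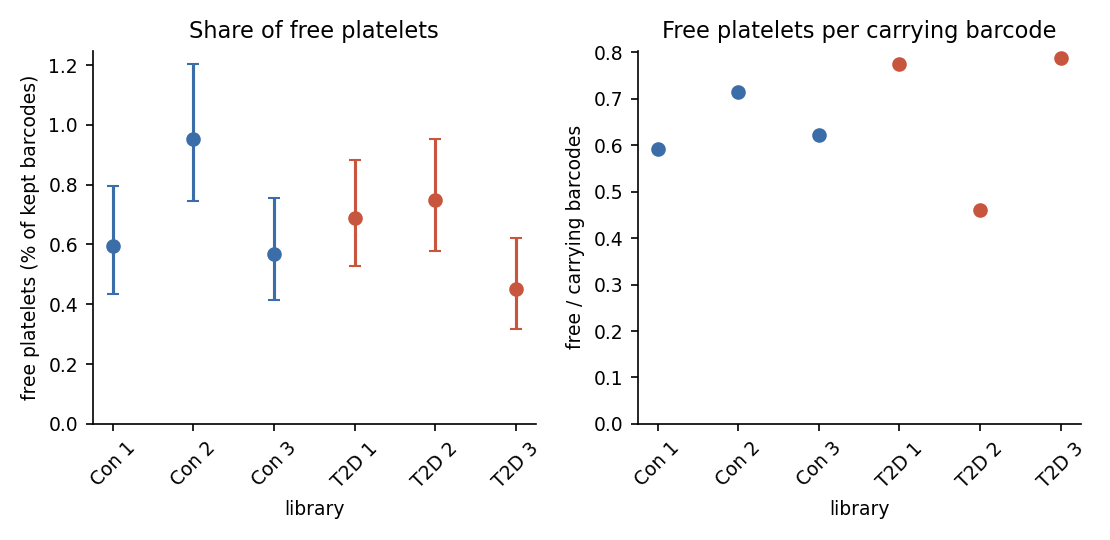
Left, free platelets as a percentage of kept barcodes in each library with exact 95% binomial intervals; right, free platelets per carrying barcode. Blue marks Con and red T2D, and the 2 groups overlap in both panels, with Con 2 the highest share at 0.954% and T2D 3 the lowest at 0.452%.

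Size and composition of free platelets did not separate the groups either. The median was 742, 802 and 819 UMIs in Con 1 to 3 and 858, 754 and 822 in T2D 1 to 3. At 500 UMIs per barcode the median number of genes was 285 ± 6.03 in Con and 289 ± 5.48 in T2D (n = 3, exact permutation p = 0.5). The cytoskeletal share was 12.6% ± 0.635 in Con and 11.01% ± 1.53 in T2D (n = 3, exact permutation p = 0.3). All 12 measures tested overlapped between the groups, and all had an adjusted p of 1 over the family.

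No gene passed the test for a T2D effect. Of 1009 genes tested with edgeR's quasi-likelihood test on UMIs summed per library, 0 (0%) had an adjusted p under 0.05; the lowest was 0.998. At an unadjusted p under 0.05 there were 27 genes (2.68%), 12 higher (1.19%) and 15 lower (1.49%). Libraries did not overlap for 79 genes (7.83%), 14 higher (1.39%) and 65 lower (6.44%) in T2D, on levels scaled to library totals. That split depends on the scaling: with TMM factors it was 34 higher and 47 lower, and the median log2 difference over all genes moved from -0.099 to 0.02. DESeq2 called 1 gene, Egr1. At this depth a change could be missed, and the list medians that follow are TMM-scaled and are to be read beside that 0.02.

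By group, 0 genes of any list passed in either direction. Among the cytoskeletal genes 25 were tested, with a median log2 difference of -0.21 (-0.15 without barcodes over 3000 UMIs), and 5 had lower values in each T2D library than in each Con library: Cfl1, Actb, Tpm4, Actn1 and Pfn1. With TMM-scaled levels 4 of them did, without Pfn1. Over all 1009 genes tested, 65 (6.44%) were lower in this way, and 47 with TMM-scaled levels. For Actb the levels were 23552, 25223 and 27627 CPM in Con and 20730, 18127 and 18213 CPM in T2D, a log2 difference of -0.30 with a standard error of 0.15 (edgeR adjusted p = 0.998). Of 15 alpha granule genes tested none had groups without overlap, and the median was -0.0046. Of 18 receptor genes Mpig6b, an inhibitory receptor, had groups without overlap, with 1448, 1431 and 1052 CPM in Con and 896, 856 and 760 CPM in T2D, although with TMM scaling its groups overlapped. Of 20 signalling genes Gnaz, a G-protein subunit, was lower in each T2D library under both scalings. A single gene in lists of this size, as for Mpig6b and Gnaz, is near the share over all genes. The median of the 6 transcription factor genes tested was 0.35. Of the 2 tested nuclear RNA genes the median was 1.24, and -0.07 without barcodes over 3000 UMIs; for 5 interferon-stimulated genes it was 1.13 and 0.17.

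The MHC class I genes, which present peptides on the cell surface, had a median of 0.46 over 4 tested (0.48 without barcodes over 3000 UMIs). B2m, the shared light chain of these molecules, was the gene of smallest p on the higher side. It had 3466, 3141 and 3446 CPM in Con 1 to 3 and 5554, 4803 and 4561 CPM in T2D 1 to 3. All T2D libraries lie above all Con libraries. The log2 difference was 0.69 with a standard error of 0.19 (edgeR adjusted p = 0.998), and 304 of 326 free platelets held a B2m UMI. In the barcodes other than free platelets B2m was 3011 ± 161 CPM in Con and 3438 ± 212 CPM in T2D (n = 3), and the part of free RNA in the difference was not tested.

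The next 4 genes on the higher side did not pass either. Ybx3, a cold-shock domain RNA-binding protein, was at 123 ± 3.36 CPM in Con and 245 ± 36.4 CPM in T2D, from 70 UMIs in all. Its log2 difference of 1.11 fell to 0.077 with at least 5 platelet UMIs. Ucp2, a mitochondrial carrier, was at 284 ± 53.2 and 602 ± 269 CPM (log2 difference 1.30, and 0.17 with at least 5 platelet UMIs), Lpin2, a phosphatidate phosphatase, at 548 ± 117 and 995 ± 433 CPM, and Aldh1a1, a retinaldehyde dehydrogenase, at 464 ± 58.8 and 832 ± 449 CPM (n = 3 each). The largest single contribution was 16.7% of the Lpin2 UMIs, from the barcode of 21083 UMIs.

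On the lower side the smallest p belonged to Egr1, an immediate early transcription factor. It had 831, 278 and 887 CPM in Con 1 to 3 and 38.4, 83.5 and 0 CPM in T2D 1 to 3. All T2D libraries lie below all Con libraries. The log2 difference was -3.48 with a standard error of 0.75 (edgeR adjusted p = 0.998; 0.0125 with DESeq2, 9.682e-06 without the filter on low counts, 0.0338 without barcodes over 3000 UMIs, and up to 1.00 over the other alternatives; it was too low to be tested with strict members or at 20 platelet UMIs). Its 109 UMIs came from 18 barcodes, and 5 barcodes held 70.6% of them. In barcodes other than free platelets Egr1 was 196 ± 51.6 CPM in Con and 118 ± 49.4 CPM in T2D (n = 3). Neither Egr1 nor the other 10 immediate early genes tested passed in the main test, and the list's median was 0.05.

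Ccl3, a chemokine of activated myeloid cells, had 189 UMIs in 20 barcodes, of which 1 barcode of Con 3 held 36.5%. Its mean was 1133 ± 1135 CPM in Con and 87.9 ± 76.2 CPM in T2D. Hdc, the histamine-forming enzyme, was at 516 ± 257 and 87.9 ± 76.2 CPM, and C5ar1, the receptor for complement C5a, at 316 ± 48.0 and 69.7 ± 61.3 CPM. With at least 5 platelet UMIs their log2 differences were -1.06 and -0.86, against -2.12 and -1.76 with at least 10. Each of these 3 genes had 0 UMIs in T2D 3, as did Egr1, which allows up to 91.2 CPM there; that library also had the lowest neutrophil marker sum. Summed neutrophil markers were 5754 ± 4048 CPM in Con and 7218 ± 6598 CPM in T2D, and basophil markers 693 ± 758 and 373 ± 188 CPM (n = 3), with Con 3 the highest for basophil markers. The part of these markers in the values was not tested. Nfkbid, an inhibitor of nuclear factor kappa B, was at 203 ± 41.3 CPM in Con and 43.0 ± 26.1 CPM in T2D (n = 3), and in barcodes other than free platelets at 207 ± 26.0 and 119 ± 2.89 CPM.

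**Figure D5:**
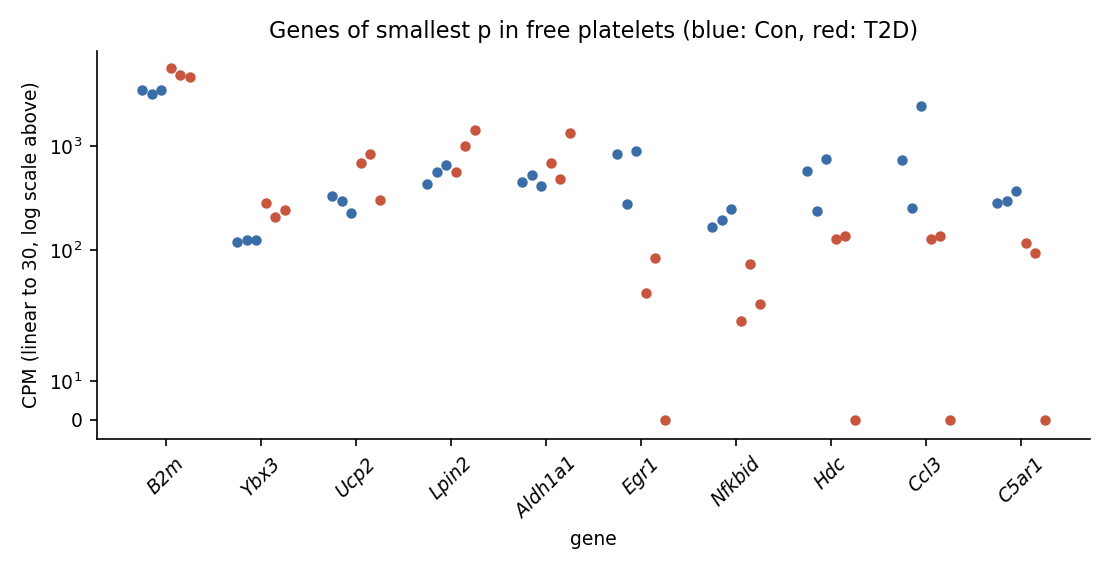
Level in CPM of the 5 genes of smallest p in each direction in the free platelets of each library, Con in blue and T2D in red, on an axis that is linear to 30 CPM and logarithmic above. None passed the adjusted threshold; B2m and Ybx3 lie higher in all T2D libraries, and Egr1, Nfkbid, Hdc, Ccl3 and C5ar1 lower.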

How the data were processed

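UMI counts per gene and barcode were deposited by the authors as 1 raw matrix per library (31253 genes, 6 libraries). Per the labels' protocols, mononuclear cells were separated on Ficoll, red cells lysed, and BD Rhapsody 3′ libraries sequenced; CASAVA 1.8, UMI-tools, Seurat and the mm10 build are listed per the submitters' processing notes. Aligner, annotation and strand setting: not given in the sources used here, so overlapping genes cannot be told apart. The members and gene lists were chosen with earlier results of these data known. Counts were summed per library over members and tested with edgeR 4.0.16 (TMM, filterByExpr, robust quasi-likelihood, Benjamini-Hochberg) and, as an alternative, DESeq2 1.42.0, both in R 4.3.3; other tests are exact permutations over libraries (Python 3.11.15, scipy 1.17.1). CPM levels use member totals and folds are TMM-scaled. Genes named are those of the rule, the 5 of smallest p per direction, up to 4 per list by level, and 15 each by level and enrichment; further list members were named after their values were seen. The edgeR step was tested on simulated data. All library pairs differed by more than sampling noise. Alternatives covered the rule's limits, scaling, filters, single libraries and the replicate number; those without barcodes over 3000 UMIs were added after seeing the data. Positions are from GENCODE (GRCm38), upstream bases from RefSeq. Values of 2 list genes are not reported here. A sign-flip test of free platelets against carrying barcodes was run, but its p is not used, because the rule bears on those measures.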

Additional observations from a re-analysis of the deposited data

How the results depend on the processing

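The T2D direction of the share and of most composition measures changed in some alternatives, and none of these values can pass 0.05 with 3 against 3 libraries. The share difference changed sign in 2 of 15 alternatives and ranged from -0.144 to 0.0495 when a library was left out. The log2 ratio of free to carrying barcodes changed sign in 7 of 14: -0.348 at 5 and -0.105 at 20 platelet UMIs, -0.00414 with exclusion limits of 0, -0.298 with strict members, and -0.0991 to 0.286 when a library was left out. Of the 12 library measures, 9 changed sign in at least 1 of 10 alternatives; median UMIs, the cytoskeletal share and the lipid share did not. With strict members the reversed values were -1.67 genes at 500 UMIs, -0.0126 points mitochondrial, 0.0110 alpha granule and 0.233 receptor; without barcodes over 3000 UMIs they were 0.234 receptor and 0.0267 secretion. Leaving out a library gave -3.75 to 17.8 genes, -0.0969 to 0.151 points mitochondrial, -0.248 to 0.0198 ribosomal protein, -1.13 to 0.0544 alpha granule, -0.608 to 0.353 receptor, -0.507 to 0.172 signalling, -0.139 to 0.0577 secretion and -0.0306 to 0.113 transcription factor.

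Free platelets stayed below carrying barcodes in UMIs, mitochondrial and ribosomal protein share in the alternatives run, but by much less under some: -918 UMIs, -0.373 and -0.364 points at 20 platelet UMIs, and -936 UMIs, -0.555 and -0.794 points with exclusion limits of 0, an alternative added after seeing the data. When a library was left out they were -2566 to -2153 UMIs, -1.01 to -0.824 and -4.24 to -3.24 points. The Malat1 difference was -712 CPM with strict members, -239 without barcodes over 3000 UMIs, -272 with exclusion limits of 0 and -222 to 1386 when a library was left out; the cause was not tested.

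The count of genes called went from 0 higher and 0 lower to 11 and 2 (Egr1 and Ccl3) with no filter on low counts, 1 lower with DESeq2 (Egr1), 1 higher with strict members (mt-Nd1, log2 1.43), 1 lower without barcodes over 3000 UMIs (Egr1, -4.98), and 0 to 1 higher and 0 to 0 lower when a library was left out (S100a8, 1.78, without T2D 3). Of 68 named genes 45 changed sign in at least 1 alternative. Deviations from the group mean gave r = 0.196, -0.322 and -0.110 for same-numbered libraries, and -0.361 to 0.411 for differently numbered ones. With 3 libraries per group these values show no pairing by number and cannot exclude one. With the replicate block 0 genes were called, and the share difference was -0.0749.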

Other observations

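With no filter on low counts, edgeR's quasi-likelihood test called 11 further genes higher in T2D, among them Upk1b, Prss8, Pglyrp4 and S100a14, which encode epithelial proteins. Their UMIs lay almost all in T2D 2. Upk1b had 39 UMIs there and 0 in the other libraries, and without the 14 barcodes over 3000 UMIs it had 0; over the 11 genes 0 to 2 UMIs then remained. The barcode of 21083 UMIs belongs to T2D 2.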
